A study of Mus musculus with 7 samples.

Results

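Immediate early genes and activity genes are genes whose transcription responds to a stimulus reaching the cell. Here 10 of them, taken by gene symbol and found as 10 of the 50600 gene rows, were followed at postnatal day 7 in mouse olfactory epithelium, the part of the nasal lining that holds the odour-sensing neurons. They are Fos, Fosb, Junb, Egr1, Ier2, Dusp1, Nr4a1, Arc, Npas4 and S100a5. The libraries came from 3 genotypes. Amigo1neo/neo (neo, 3 libraries) carries a neomycin selection cassette in place of the coding region of Amigo1, Amigo1-/- (KO, 3 libraries) is a knock-out whose labels name no cassette, and Amigo1+/+ (WT, 1 library) is wild type. Amigo1 encodes a leucine-rich repeat adhesion protein, and neo and KO are both labelled as knock-outs of it, so they differ from each other by allele. Strain, sex and treatment are not given in the labels. Nothing in the labels ties every library to a separate animal, so the spread behind each p-value may be partly technical. The sample names of neo hold another code and date-like number than those of KO and WT, and the effects of these and of the cassette cannot be told apart.

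Immediate early genes are switched on within minutes, without new protein synthesis, when calcium, cAMP or growth factor signals activate factors already bound at their promoters, such as CREB and SRF, and their messages are short-lived. In olfactory sensory neurons an odour opens a cyclic-nucleotide-gated channel through cAMP, and S100a5, a calcium-binding protein gene of these neurons, is known to lose expression when odour access is blocked. Wounding, handling and dissociation of a tissue switch on Fos, Junb, Egr1, Ier2 and Dusp1 as well, in many cell types. The design compares neo with KO, KO with WT and neo with WT, and the gene set was read for sensory activity as against dissection stress.

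Gene counts totalled 14879415 to 21343058 per library. Amigo1 had 11, 5 and 1 counts in the neo libraries and 0, 8 and 16 in the KO libraries, against 744 in WT, as the labels say. Xist was high only in neo replicate 1 and WT (1145 and 643 CPM, against at most 4.21 CPM in the other 5), and Ddx3y was high in those other 5, so sex was not balanced over the groups. No KO library was of the same sex as WT. All 10 markers of mature olfactory neurons were present in every library, with Omp, the olfactory marker protein gene, at 789 to 1168 CPM. Neo replicate 1 and KO replicate 3 stood apart from the rest, KO replicate 3 in the early response genes themselves. Neo replicate 1 had a summed 854 CPM of 5 skeletal muscle genes, against 2.39 to 14.5 CPM in the other 6. CPM is a gene's count scaled by library size, here after TMM normalisation over the 7 libraries.

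The members spanned a wide range of levels. Per transcript length, S100a5 was the highest, with a mean of 679 TPM (a level scaled for transcript length and library size) over the 7 libraries and a range of 602 to 774 TPM that no other member reached. Below it came Dusp1 at 28.3 TPM, Ier2 at 20.5, Nr4a1 at 14.2, Junb at 14.1, Egr1 at 8.24 and Fos at 7.19 TPM, and each of these overlapped the next in its range over libraries. Arc followed at 1.95 TPM, with a range of 1.44 to 2.53 TPM below that of Fos (3.44 to 19.3 TPM) and above that of Fosb. Fosb at 0.349 TPM and Npas4 at 0.196 TPM were the lowest and overlapped each other. The spread within a gene did not follow its level. Between the highest and the lowest library, CPM differed 7.49-fold for Fosb, 6.19-fold for Fos and 4.15-fold for Junb, but 1.82-fold for Arc and 1.48-fold for S100a5.

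**Figure D1:**
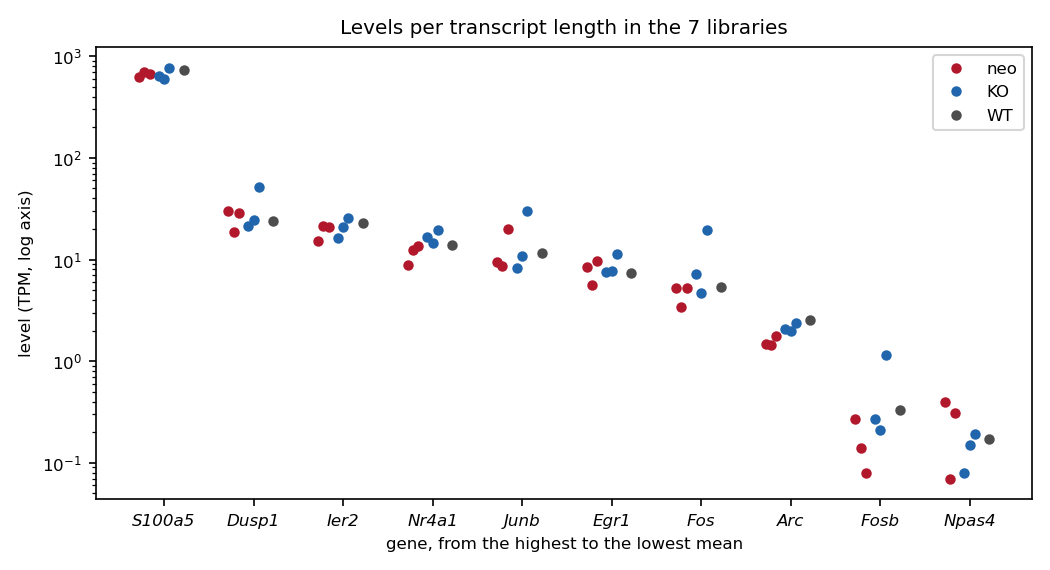
Level of each of the 10 genes in TPM on a log axis, with 1 point per library (neo, KO, WT from left to right within a gene). S100a5 lies between 602 and 774 TPM in all 7 libraries, while Fosb and Npas4 lie near or below 1 TPM.

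Several of these genes are textbook targets of CREB, whose site is the cAMP response element (CRE), so the sequence just before the start site is shown for the members for which the RefSeq promoter table (GRCm38.p6) holds a window, S100a5 and Npas4 aside. Capitals mark the short CRE motif TGACG, which reads CGTCA when it lies on the other strand, the full CRE TGACGTCA, which contains the short motif on each strand, and the TATA motif TATAAA. Both strands were searched. The windows are Fos at chr12:85473640-85473889 (plus strand), Fosb at chr7:19310052-19310295 (minus strand), Junb at chr8:84978749-84978998 (minus strand), Dusp1 at chr17:26508520-26508722 (minus strand) and Nr4a1 at chr15:101266596-101266845 (plus strand). Fosb and Dusp1 are shown shortened because their windows overlap annotated exons.
Fos: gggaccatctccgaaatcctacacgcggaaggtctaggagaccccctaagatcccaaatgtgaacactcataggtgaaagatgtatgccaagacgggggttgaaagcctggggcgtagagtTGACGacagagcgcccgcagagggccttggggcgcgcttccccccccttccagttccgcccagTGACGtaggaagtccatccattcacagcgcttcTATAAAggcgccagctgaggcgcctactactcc
Fosb: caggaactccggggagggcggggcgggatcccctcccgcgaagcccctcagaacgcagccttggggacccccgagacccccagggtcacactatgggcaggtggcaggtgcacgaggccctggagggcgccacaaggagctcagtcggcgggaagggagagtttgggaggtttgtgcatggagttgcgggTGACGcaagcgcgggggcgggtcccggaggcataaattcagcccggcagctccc
Junb: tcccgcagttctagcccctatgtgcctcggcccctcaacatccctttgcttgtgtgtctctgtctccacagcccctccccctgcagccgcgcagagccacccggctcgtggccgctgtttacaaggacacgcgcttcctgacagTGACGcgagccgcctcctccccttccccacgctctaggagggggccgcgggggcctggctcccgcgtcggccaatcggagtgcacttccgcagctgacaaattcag
Dusp1: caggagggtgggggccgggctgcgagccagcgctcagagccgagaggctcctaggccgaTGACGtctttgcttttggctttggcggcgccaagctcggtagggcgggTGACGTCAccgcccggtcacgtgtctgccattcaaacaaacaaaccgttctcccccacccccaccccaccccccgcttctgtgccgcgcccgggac
Nr4a1: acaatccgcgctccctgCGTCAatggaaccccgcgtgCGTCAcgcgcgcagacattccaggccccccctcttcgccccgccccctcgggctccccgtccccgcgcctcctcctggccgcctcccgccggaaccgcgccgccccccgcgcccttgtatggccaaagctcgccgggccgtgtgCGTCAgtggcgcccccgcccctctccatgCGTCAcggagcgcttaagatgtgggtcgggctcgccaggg
The table held a window for 7 of the 10 members, and 6 of the 7, all but S100a5, held the short CRE motif, against 17.8% of 32841 windows of 250 bases. Nr4a1 held it 4 times, Dusp1 3, Fos and Npas4 2 each, and Fosb and Junb 1 each. The full CRE was found in Dusp1 only, against 1.55% of windows, and TATAAA in Fos only, at 33 to 28 bases before the start, against 12.4% of windows. In Fos the short motif nearest the start lay at 66 to 62 bases before it. The CArG box, the motif of SRF, was in none of the 7 windows (1.47% of all windows), and neither was the AP-1 motif TGANTCA (6.75%). A match describes these letters only, and a missing match says nothing of the factor. The S100a5 window is not shown because it precedes a start (base 90608523 of chromosome 3) whose transcript carried 4.5 to 21.7% of the gene's TPM, while the main transcript started at base 90609810. The Npas4 window is not shown because its annotated transcript starts further upstream, so that the window overlaps its exon.

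Fos, Fosb and Junb encode subunits of AP-1, a transcription factor made of a Fos and a Jun protein. Fos (ENSMUSG00000021250.13, chr12:85473890-85477273, GRCm38, plus strand) had 6.01, 4.51 and 7.17 CPM in neo and 9.03, 6.86 and 27.9 CPM in KO, against 6.75 CPM in WT. KO replicate 3 was 3.51 times the mean of the other 2 KO libraries, and the other 6 libraries lay between 4.51 and 9.03 CPM with neo and KO overlapping. The log2 difference, neo minus KO, was -1.31 (SE 0.57), with an adjusted p of 0.545. Without KO replicate 3 it was -0.43 (SE 0.26), and over all alternatives it ran from -1.64 to -0.43, with adjusted p from 0.430 to 0.905. In tissue RNA of this kind, fewer cells of a type and less RNA per cell cannot be told apart.

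Fosb (chr7:19302696-19310051, minus strand) had 14, 6 and 5 counts in neo and 9, 12 and 45 counts in KO, against 18 in WT. In CPM these were 0.60, 0.36 and 0.33 in neo and 0.55, 0.65 and 2.48 in KO, against 0.83 in WT. Again KO replicate 3 was alone at the top, 4.16 times the mean of the other 2 KO libraries, and the rest overlapped. The log2 difference was -1.46 (SE 0.64, unadjusted p = 0.0477, adjusted p = 0.535), and -0.43 (SE 0.49) without KO replicate 3. Junb (chr8:84974484-84978718, minus strand) had 9.29, 12.2 and 24.2 CPM in neo and 11.1, 13.3 and 38.6 CPM in KO, against 13.5 CPM in WT. Here neo replicate 3 was the second highest library after KO replicate 3. The difference was -0.48 (SE 0.63, adjusted p = 0.864) and had the opposite sign, 0.30 (SE 0.41), without KO replicate 3. Prdx2 on the other strand overlaps an non-coding Junb transcript that had at most 4.4% of the gene's TPM.

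Egr1, a zinc finger transcription factor gene (chr18:34859823-34864984, plus strand), had 16.2, 14.5 and 21.7 CPM in neo and 17.2, 18.2 and 27.4 CPM in KO, against 16.5 CPM in WT. Ier2, a short nuclear protein gene with a single annotated transcript (chr8:84661331-84662852, minus strand), had 13.8, 25.5 and 20.8 CPM in neo and 17.9, 22.3 and 27.9 CPM in KO, against 22.6 CPM in WT. For both, the libraries of neo and KO interleaved below KO replicate 3. The differences were -0.27 (SE 0.22, adjusted p = 0.749) for Egr1 and -0.19 (SE 0.24, adjusted p = 0.851) for Ier2, and -0.023 and -0.014 without KO replicate 3.

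Dusp1 encodes a nuclear phosphatase that switches off MAP kinases, the pathway that induces many genes of the set. Dusp1 (chr17:26505590-26508519, minus strand) had 34.1, 27.9 and 36.8 CPM in neo and 30.1, 33.3 and 73.6 CPM in KO, against 30.9 CPM in WT. KO replicate 3 was 2.32 times the mean of the other 2 KO libraries, and the other 6 lay between 27.9 and 36.8 CPM, neo and KO interleaved. The difference was -0.47 (SE 0.36, adjusted p = 0.736), and 0.051 (SE 0.15) without KO replicate 3. Its full-length transcript carried 85.4 to 95.4% of the gene's TPM in each library.

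Nr4a1, the gene of an orphan nuclear receptor also called Nur77, and Arc, whose protein acts at synapses and is a standard reporter of recent neuronal firing in the brain, had a different layout. Nr4a1 (chr15:101266846-101274792, plus strand) had 12.99, 23.9 and 22.7 CPM in neo and 30.05, 25.05 and 34.8 CPM in KO, against 23.05 CPM in WT. All 3 neo libraries lay below all 3 KO libraries, and neo replicates 2 and 3 were close to WT. Its mean was 19.8 ± 5.96 CPM in neo and 29.96 ± 4.86 CPM in KO (SD, n = 3 each), a log2 difference of -0.60 (SE 0.23, unadjusted p = 0.0299, adjusted p = 0.505). It was -0.48 (SE 0.26) without KO replicate 3 and -0.36 (SE 0.15) without neo replicate 1, which was the lowest library, and -0.24 (SE 0.13) without both, and the adjusted p ran from 0.349 to 0.902 over the alternatives.

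Arc (chr15:74669083-74672570, minus strand) had 67, 58 and 52 counts in neo and 77, 83 and 94 counts in KO, against 111 in WT. In CPM these were 2.85, 3.49 and 3.45 in neo and 4.66, 4.48 and 5.19 in KO, against 5.10 in WT. The neo libraries did not overlap the KO libraries, and WT lay within the range of KO. The means were 3.26 ± 0.35 CPM in neo and 4.78 ± 0.37 CPM in KO (SD, n = 3 each), and the log2 difference was -0.56 (SE 0.20, unadjusted p = 0.0212, adjusted p = 0.498). Without KO replicate 3 it was -0.49 (SE 0.23), and without neo replicate 1 -0.46 (SE 0.22), with -0.40 (SE 0.24) without both and adjusted p from 0.401 to 0.902 over the alternatives. Arc and Nr4a1 were also the 2 members whose groups did not overlap without KO replicate 3. Groups that are apart in all libraries stay apart when any is left out, so this was fixed beforehand for both. Groups separate more readily with fewer libraries, and the share of all genes in that setting was not counted.

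Npas4, a transcription factor gene that calcium entry induces in neurons, had few counts (chr19:4984355-4989971, minus strand). It had 17, 3 and 11 counts in neo and 3, 6 and 11 counts in KO, against 8 in WT. A count of 17 has an exact Poisson 95% interval of 9.90 to 27.2, and a count of 3 one of 0.62 to 8.77, which cover counting error only. Neo and KO overlapped, and Npas4 was the only member with a positive difference, 0.55 (SE 0.61, adjusted p = 0.829), and 1.09 (SE 0.73) without KO replicate 3. KO replicate 3 was not its highest library.

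S100a5 (chr3:90608523-90611780, plus strand) had 138, 195 and 160 CPM in neo and 176, 154 and 204 CPM in KO, against 181 CPM in WT. The lowest library was neo replicate 1 and the highest KO replicate 3, with the other libraries of both groups interleaved. The means were 165 ± 28.8 CPM in neo and 178 ± 25.1 CPM in KO (SD, n = 3 each). The difference was -0.12 (SE 0.15, adjusted p = 0.849), and -0.0087 (SE 0.15) without KO replicate 3. A p that misses the threshold does not show equal levels, but the standard error of 0.15 was the smallest among the members.

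**Figure D2:**
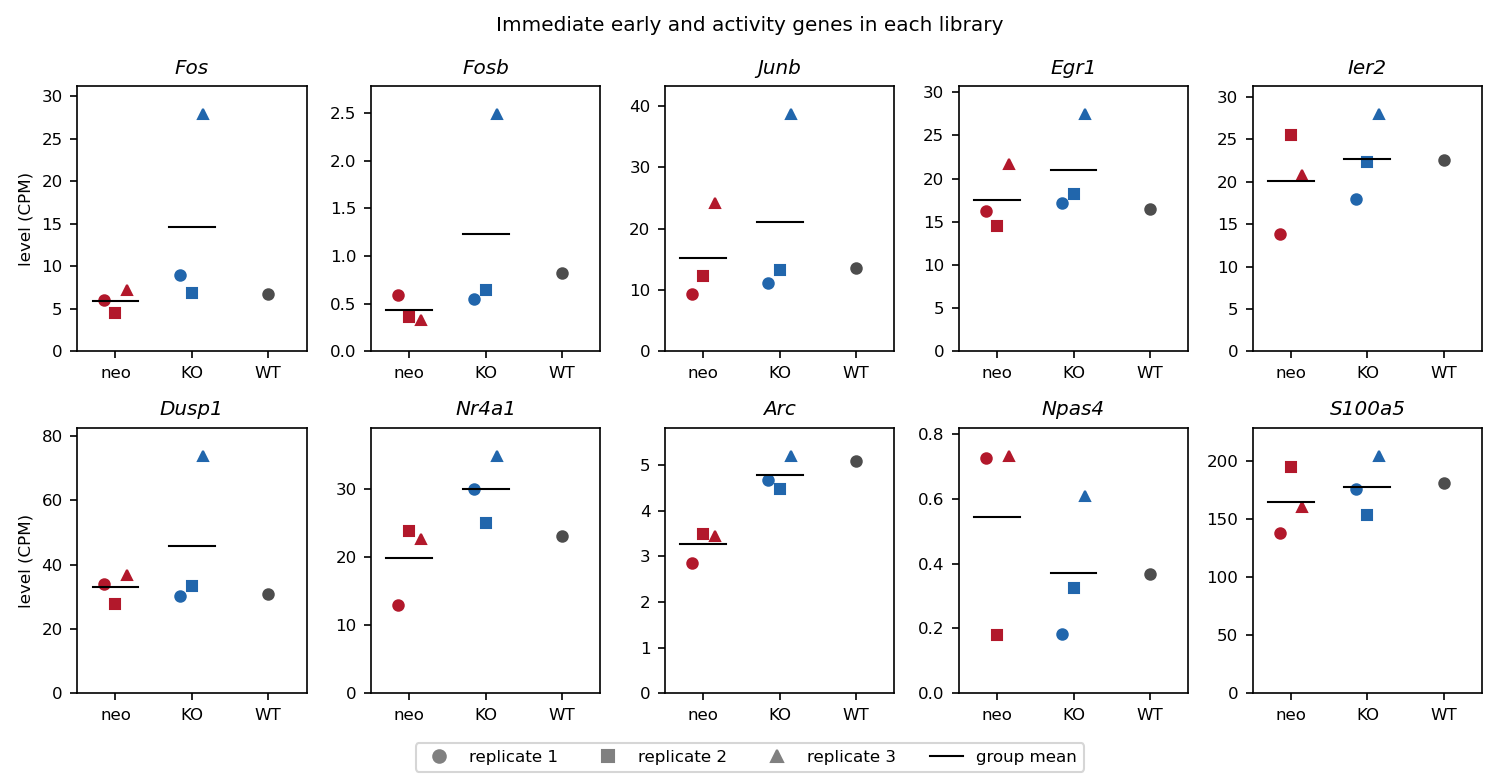
Level of each gene in CPM in every library, with neo, KO and WT from left to right, 1 point per library and a line at the group mean. KO replicate 3 (triangle) is the highest point in 9 of the 10 panels, and for Arc and Nr4a1 the 3 neo points all lie below the 3 KO points.

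Counted together, none of the 10 members passed an adjusted p of 0.05 between neo and KO with edgeR's quasi-likelihood test, where 3 of 17638 genes, 0.017%, passed. None passed with DESeq2 either, where 95 genes, 0.506%, passed, nor among the 8 that limma tested on TPM, from which Fosb and Npas4 were filtered. At an unadjusted p under 0.05, 3 members were lower in neo with edgeR (Arc, Fosb and Nr4a1), where 4.72% of all genes were. With DESeq2 4 were (the same and Fos), where 2.73% of genes were, and with limma 1 was (Nr4a1), where 1.34% of genes were. The groups did not overlap, with neo below KO, for 2 of 10 members, against 7.69% of all genes. The sign was negative for 9 of 10 members, where 50.4% of all genes were negative, and the members' median was -0.48 against -0.0022 for all genes. Without KO replicate 3 the median was -0.019, with 7 members negative and none at an unadjusted p under 0.05. In the authors' deposited table, whose sign runs KO over neo, none of the 10 was among the 79 genes called, and Nr4a1 had the smallest adjusted p of them at 0.358, with a log2 fold change of 0.60.

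**Figure D3:**
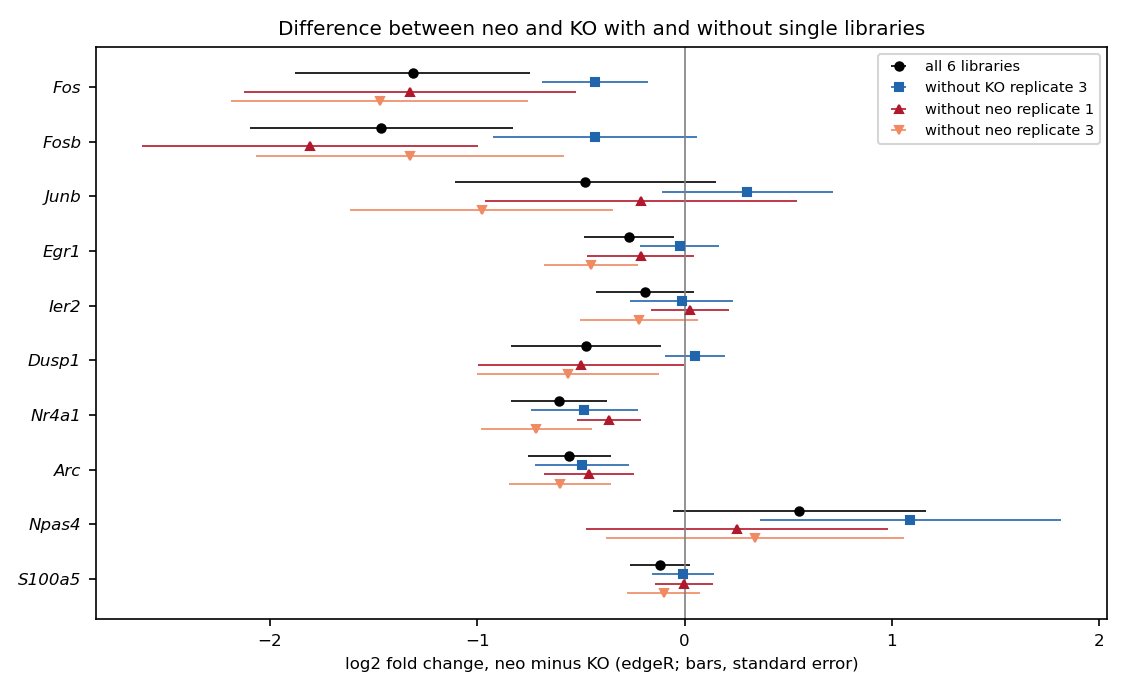
Log2 fold change of neo minus KO from edgeR for each gene, with bars of 1 standard error, from all 6 libraries and after leaving out KO replicate 3, neo replicate 1 or neo replicate 3. Leaving out KO replicate 3 moves Fos to -0.43, Fosb to -0.43, Junb to 0.30 and Dusp1 to 0.051, while Arc stays at -0.49 and Nr4a1 at -0.48.

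KO replicate 3 was the highest of the 7 libraries for 9 of the 10 members, against 17.4% of the 19123 genes tested over 7 libraries. It reached at least 2 times the mean of the other 2 KO libraries for 5 members (Fos, Fosb, Junb, Dusp1 and Npas4), against 3.85% of genes. The lowest library was one of neo for all 10 members, against 48.5% of genes, but for Npas4 by 0.180 CPM in neo replicate 2 against 0.182 CPM in KO replicate 1. These lowest libraries were divided, with neo replicate 1 for 5 members, neo replicate 2 for 4 and neo replicate 3 for Fosb.

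Among 32 other early response genes, 31 of which were tested over the 7 libraries, KO replicate 3 was the highest for 28, and at least 2 times the mean of the other 2 KO libraries for 13. Ier3, an immediate early gene of survival signalling, had 11.8, 12.3 and 18.3 CPM in neo and 11.3, 13.8 and 68.8 CPM in KO, against 13.9 CPM in WT. Atf3, a stress-induced transcription factor gene, had 5.96, 5.35 and 5.64 CPM in neo and 3.45, 3.56 and 13.4 CPM in KO, against 4.41 CPM in WT. For Ier3 the other 2 KO libraries lay within or below the range of neo, and for Atf3 below it. Socs3, a feedback inhibitor of cytokine signalling, had 34.2 CPM in neo replicate 3 and 53.9 CPM in KO replicate 3, against 11.2 to 18.0 CPM in the other 5. Ier3, Atf3 and Socs3 were picked after their values were seen.

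**Figure D4:**
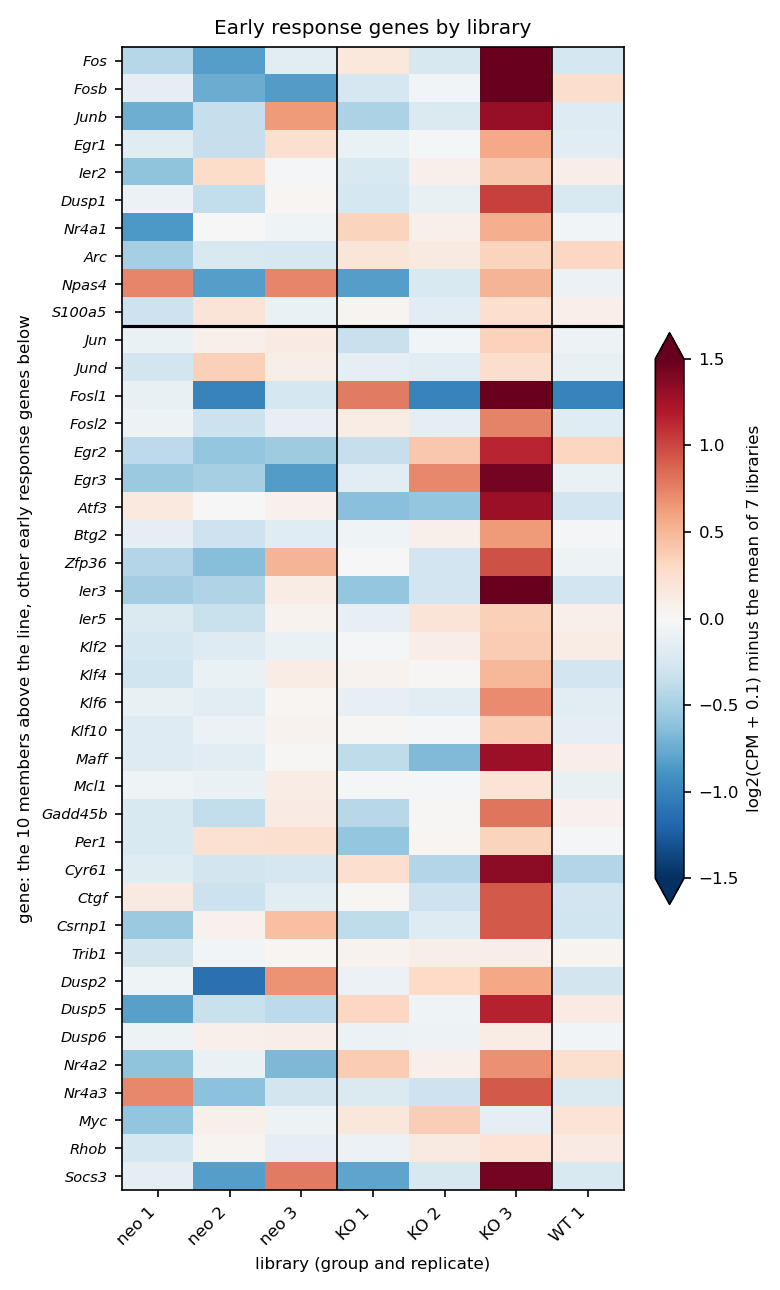
Level of the 10 members (above the line) and of the other early response genes tested (below it) in each library, as log2(CPM + 0.1) minus the mean of the 7 libraries, with neo, KO and WT from left to right and colours limited to 1.5 in each direction. KO replicate 3 is the column with the highest value for 9 of 10 members and 28 of 31 other genes.

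The same 32 genes gave 29 tested between neo and KO. None passed the adjusted threshold with edgeR, 4 were lower in neo at an unadjusted p under 0.05 (4.72% of all genes were), 25 of 29 were negative, and their median was -0.32. Without KO replicate 3 the median was 0.0051, with 15 positive and 14 negative. Of the 29, 6 had neo below KO without overlap (Egr2, Btg2, Klf2, Trib1, Dusp5 and Nr4a2), where 7.69% of all genes did. The 4 with the smallest p were Nr4a2, Dusp5, Egr2 and Btg2. Nr4a2, the gene of a nuclear receptor of the same family as Nr4a1, had 7.80, 11.1 and 7.43 CPM in neo and 15.6, 12.6 and 19.2 CPM in KO, against 14.1 CPM in WT. Its layout was like that of Arc, with WT among the KO libraries, and the difference was -0.85 (SE 0.21, adjusted p = 0.420), or -0.69 without KO replicate 3, with adjusted p from 0.0541 to 0.902 over the alternatives. Dusp5, a nuclear phosphatase of ERK, had 5.92, 8.29 and 7.96 CPM in neo and 13.0, 9.99 and 23.5 CPM in KO, against 11.4 CPM in WT, a difference of -1.08 (SE 0.31, adjusted p = 0.471), or -0.65 without KO replicate 3. Egr2, a relative of Egr1, had 1.11, 0.961 and 0.995 CPM in neo and 1.15, 1.997 and 3.42 CPM in KO, against 1.88 CPM in WT (log2 difference -1.10, adjusted p = 0.498, or -0.62 without KO replicate 3). For Btg2, an antiproliferative gene, the difference was -0.46 (SE 0.17, adjusted p = 0.502), or -0.22 without KO replicate 3. The members and this list share the libraries and the test, so they are no independent evidence of each other.

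Of 13 effector genes, which neurons use to act on activity, KO replicate 3 was the highest library for 9, where it was for 17.4% of all genes. Of the 12 tested between neo and KO none passed and none was under an unadjusted p of 0.05 with edgeR. Of these 10 were negative and 2 positive, and their median was -0.24, and -0.044 without KO replicate 3. Rgs2, a G protein regulator, had 38.1, 26.0 and 28.5 CPM in neo and 34.2, 33.1 and 51.4 CPM in KO, against 29.9 CPM in WT (-0.36, adjusted p = 0.642). Nfil3, a transcriptional repressor gene, differed by -0.50 (adjusted p = 0.656), Gem by -0.43 (adjusted p = 0.663) and Nptx2, a secreted synaptic pentraxin, by -0.25 (adjusted p = 0.707). With KO replicate 3 left out these were -0.13 for Rgs2, -0.078 for Nfil3, -0.22 for Gem and -0.0073 for Nptx2. Neo and KO overlapped for all 12.

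The 11 other genes listed as following sensory activity in olfactory neurons include genes with opposite known responses, such as Kirrel2 and Kirrel3. Counts of signs and a median over this list therefore cannot show whether activity differed. Of the 10 tested between neo and KO, 5 were positive and 5 negative, the median was 0.0085, and none was under an unadjusted p of 0.05 with edgeR. Kirrel2, an adhesion gene that odorant-driven activity raises in these neurons, had 101, 99.9 and 80.6 CPM in neo and 115, 153 and 94.9 CPM in KO, against 156 CPM in WT. The neo libraries lay low, but overlapped KO replicate 3, and the difference was -0.37 (SE 0.17, adjusted p = 0.548). Kirrel3, which is known for the opposite response, had 26.0, 30.2 and 28.5 CPM in neo and 24.7, 26.7 and 21.5 CPM in KO, against 26.4 CPM in WT, a difference of 0.21 (SE 0.12, adjusted p = 0.632). Rasgrp4 differed by 0.40 (SE 0.20, adjusted p = 0.575), with neo above KO in every library. Its nearest libraries were neo replicate 1 at 6.26 CPM and KO replicate 1 at 6.24 CPM. The share of all genes higher in neo without overlap was not counted. Epha5, an ephrin receptor gene, differed by -0.38 (SE 0.21, adjusted p = 0.611). With KO replicate 3 left out, 11 of the list were tested. Of these, 2 were lower in neo at an unadjusted p under 0.05 with edgeR. In that setting 1583 of 17938 genes were under 0.05 in either direction. Neo then lay below KO without overlap for Kirrel2 (-0.51) and Epha5 (-0.57), while Kirrel3 differed by 0.13. For Kirrel2 and Epha5 the adjusted p was 0.529 each. Groups separate more readily with fewer libraries, and the share of all genes without overlap was not counted there.

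Regulators upstream of the set varied less by library, with a median ratio of the highest to the lowest library of 1.33, against 2.66 for the members. None of 21 passed with edgeR, KO replicate 3 was the highest library for 4, a share near the 17.4% of all genes, and the median was -0.046. Crem, a CREB family gene whose inner promoter is itself cAMP-inducible, had 8.56, 7.63 and 8.43 CPM in neo and 9.57, 11.01 and 15.95 CPM in KO, against 9.41 CPM in WT. The groups did not overlap, and the difference was -0.57 (SE 0.21, unadjusted p = 0.0217, adjusted p = 0.498), or -0.33 without KO replicate 3. Crtc2, a CREB coactivator gene, went the other way at 0.28 (SE 0.12, unadjusted p = 0.0414, adjusted p = 0.523), also without overlap. Crem was the 1 of 21 lower in neo without overlap, against 7.69% of all genes. It was also the 1 lower at an unadjusted p under 0.05 with edgeR, against 4.72% of genes. The share of all genes higher in neo without overlap was not counted. Creb1 differed by -0.30 (SE 0.15, adjusted p = 0.572) and Elk4, an SRF partner gene, by 0.20 (SE 0.12, adjusted p = 0.643). Creb1 passed, at -0.57 and an adjusted p of 0.0363 (0.0363 to 0.942 over the alternatives), when KO replicate 3 and neo replicate 1 were both left out. In that setting 183 of 17571 genes passed.

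Of 10 heat shock genes, none passed with edgeR and the median was -0.0021. KO replicate 3 was the highest library for 4 of the 10, where it was for 17.4% of all genes. It reached at least 2 times the mean of the other 2 KO libraries for 3 (Hspa1a, Hspa1b and Hspb1), against 3.85% of genes. Hspb1 had 15.5 CPM in KO replicate 3 and 6.75 to 10.6 CPM elsewhere. The inducible pair Hspa1a and Hspa1b stood out most there. Hspa1a had 2.13, 2.40 and 4.25 CPM in neo and 3.03, 2.59 and 12.3 CPM in KO, against 3.21 CPM in WT. Hspa1b had 4.90, 5.77 and 8.89 CPM in neo and 7.88, 4.70 and 21.4 CPM in KO, against 6.93 CPM in WT. Neo replicate 3 was second in both, as it was for Junb. The constitutive Hspa8 had 325, 371 and 343 CPM in neo and 319, 326 and 275 CPM in KO, against 334 CPM in WT, and Hsph1 differed by 0.16 (SE 0.11, adjusted p = 0.702). Hspa1a and Hspa1b are near-identical copies, so the split of reads between them is uncertain, and both differences, -1.05 and -0.81, were 0.043 without KO replicate 3.

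Over all 7 libraries, the 5 genes whose level pattern was nearest that of Fos among 16427 searched were Bcl3, Hspa1a, Cdkn2b, Cyr61 and Timp1. Their root mean square difference from Fos in log2 CPM was 0.26 to 0.31, against 0.38 for Fosb, 0.40 for Dusp1 and 0.48 for Junb. Bcl3 had 3.71, 2.28 and 5.18 CPM in neo and 3.45, 3.99 and 15.6 CPM in KO, against 3.40 CPM in WT, and like Fos it was set by KO replicate 3. Among the genes nearest S100a5 were Itgb5, Ankrd22, Oaf and Iscu, at 0.0517 to 0.0619, and among members Ier2 was nearest to S100a5 at 0.19. This is a likeness over 7 points that include the single library that varies most.

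Markers of other cell types moved with these results. S100a8 and S100a9, neutrophil genes chosen after their values were seen, had 89.1 and 152 CPM in neo replicate 3 and 77.2 and 122 CPM in KO replicate 3, against at most 26.5 CPM in the other 5 libraries. Of the 8 neutrophil markers 1 was highest in KO replicate 3, and Ly6g and Elane were at 0 in some libraries. The sum of the 8, 908 to 2079 CPM in neo and 1033 to 1554 CPM in KO, was mostly Ltf. Ltf alone had 856, 1858 and 1825 CPM in neo and 1527, 984 and 910 CPM in KO, so the sum says little of the other markers. Of 8 macrophage markers 2 were highest in KO replicate 3, with sums of 125 to 167 CPM in neo and 118 to 141 CPM in KO. Their part in the levels of the early response genes was not tested.

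Markers also moved with the groups. The 6 fibroblast markers summed to 4009 to 6997 CPM in neo and 8973 to 13053 CPM in KO, and the 7 bone and cartilage markers to 213 to 685 CPM in neo and 886 to 1252 CPM in KO, both without overlap. Most of the fibroblast sum was Col1a1 (1397 to 2695 CPM in neo, 3565 to 5785 CPM in KO) and Col1a2 (1451 to 2877 CPM in neo, 3930 to 5882 CPM in KO). That sum therefore says little of the other fibroblast markers. Within these lists Col1a1, Col1a2 and Lum of the fibroblast markers and Bglap, Ibsp, Sp7 and Dmp1 of the bone markers were lower in neo without overlap. Dcn, Col3a1 and Pdgfra overlapped, as did the cartilage markers Col2a1 and Acan, and the cartilage marker Col9a1 was higher in neo without overlap. The 10 mature neuron markers summed to 3736 to 4261 CPM in neo and 3299 to 3591 CPM in KO, also without overlap, against 3730 CPM in WT, with Omp, Stoml3 and Rtp1 higher in neo without overlap and the other 7 overlapping. None of these markers was at 0 in any library. Their part in the lower Arc and Nr4a1 levels of neo was not tested.

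Set against the neuron markers, a scaling chosen after the data had been seen, S100a5 had 36.3, 45.8 and 42.9 counts per 1000 neuron marker counts in neo and 49.0, 46.0 and 61.9 in KO, against 48.6 in WT. The groups then did not overlap, with a log2 difference of -0.33 and an exact two-sided permutation p of 0.1, which is the smallest that 3 against 3 allows. Leaving out KO replicate 3 gave -0.19 and leaving out neo replicate 1 gave -0.24. The nearest libraries were neo replicate 2 at 45.8 and KO replicate 2 at 46.0. On this scale 4 of the 10 members were below KO without overlap (Fos, Nr4a1, Arc and S100a5), against 25.8% of all genes. Scaled by each of the 10 markers singly, S100a5 had a lower mean in neo for all 10 (log2 difference -0.42 to -0.20). Each of the 10 markers was itself higher in neo (0.086 for Rtp2 to 0.30 for Stoml3), and unscaled S100a5 was at -0.12. The negative sign for all 10 followed from these values and is no further evidence. Part of the -0.33 likewise comes from the higher marker sum in neo. The groups did not overlap for 4 of these 10 markers only.

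Between KO and WT, none of the 10 members passed with edgeR, where 1 of 19123 genes, 0.00523%, passed, and none was under an unadjusted p of 0.05, where 0.727% of genes were. WT has 1 library, which is assumed to vary like the others. By Xist and Ddx3y, WT differed in sex from all KO libraries, so sex and genotype cannot be told apart in this comparison. The sign was positive for 8 of 10 members, with a median of 0.36, but without KO replicate 3 for 4 of 10, with a median of -0.14. Fos differed by 1.11 (SE 0.84) with all KO libraries and by 0.24 without that one. For Arc the difference was -0.093 (SE 0.27) and for S100a5 -0.025 (SE 0.21). DESeq2 called none of the members, and 0.00319% of genes. Of the other early response genes 28 of 31 were positive, with a median of 0.28, and of -0.021 without KO replicate 3.

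Between neo and WT, none of the 10 passed with edgeR, where 2 of 19123 genes, 0.0105%, passed, or with DESeq2, where 0.00957% passed. One member, Arc, was lower in neo at an unadjusted p under 0.05, where 1.72% of genes were. Its difference was -0.65 (SE 0.27, unadjusted p = 0.0384, adjusted p of 1, and 0.760 to 1 over the alternatives), and all 3 neo libraries lay below the WT library. WT is 1 library, and the unadjusted p ran from 0.0401 to 0.113 over the alternatives, at 0.102 with DESeq2, 0.0687 without the count filter and 0.0771 with neo and WT alone fitted. Nr4a1 differed by -0.23 (SE 0.33), Fos by -0.20 (SE 0.80), Fosb by -0.90 (SE 0.87) and S100a5 by -0.14 (SE 0.21). The median of the 10 was -0.16, with 4 positive and 6 negative. The 3 comparisons share libraries, so their values for a gene are not independent.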

How the data were processed

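Poly(A) RNA from 7 libraries was sequenced with the KAPA Hyperprep kit, per the labels' protocols. The authors deposited whole-number gene counts, counted by strand as the table's name says. The submitters' processing notes name Trimmomatic 0.35, STAR 2.5.1b, RSEM and the build GRCm38 (mm10). The authors deposited TPM per gene and transcript. Their deposited comparison of KO over neo, for which the notes name DESeq2 1.18.1, gave log2 fold changes and p-values, per the file headers. FPKM files were not used here. The 4 summary rows (3.32 to 4.38% unmapped, 14.5 to 19.6% multimapping, 14.2 to 17.4% without a feature and 0.666 to 0.865% ambiguous) stayed out of library sizes.

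The main test was edgeR 4.0.16 in R 4.3.3 with TMM scaling, filterByExpr (minimum count 10, total 15), a robust quasi-likelihood fit, two-sided, and Benjamini-Hochberg adjustment over all genes tested at 0.05. Neo and KO were compared in their 6 libraries, and WT in a fit of 7. Standard errors came from the F statistic. Alternatives were DESeq2 1.42.0, limma 3.58.1 on log2(TPM + 0.1) or log2(TPM + 1), RLE size factors, no filter, a replicate block and leaving out each library. The fit was tested on simulated data. Every pair of libraries within neo and within KO differed by more than sampling noise (chi-square divided by its degrees of freedom at least 9.58).

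The members and lists were chosen with earlier results of these data known. The genes named are the members, up to 4 of each list with the smallest p in neo minus KO and any that passed, the 5 nearest in pattern to Fos and to S100a5 (mean of at least 1 CPM), and the checks Amigo1, Xist and Ddx3y. Other named genes are markers or were chosen after their values were seen. Some genes that this rule or the marker lists hold are not reported here.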

Additional observations from a re-analysis of the deposited data

How the results depend on the processing

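No member passed the adjusted threshold in any of the 3 comparisons under any alternative run. The count of all genes called moved more. Between neo and KO it was 3, and became 40 without the count filter, 95 with DESeq2, 1 with limma on TPM under each of its 3 settings, 1 with the replicate block, 183 without KO replicate 3 and neo replicate 1, and 1 to 17 when each library was left out in turn. Between KO and WT it was 1, and became 2 without the filter, 2, 16 and 75 with limma on TPM (pseudocounts of 0.1 and 1, and no filter), 6 with only the 2 groups fitted, and 1 to 4 leaving out each library. Between neo and WT it was 2, and became 7 without the filter, 5, 17 and 88 with the same limma settings, 1 with the replicate block, and 2 to 6 leaving out each library. The cause was not tested.

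Of the named genes' 454 alternative values between neo and KO, 440 kept direction and side of the threshold. Without KO replicate 3 and neo replicate 1 (chosen after seeing the data), the log2 differences that changed sign were Junb 0.57, Egr1 0.031, Ier2 0.20, Dusp1 0.028, S100a5 0.11, Nfil3 0.074, Hspa1a 0.24 and Hspa1b 0.22, and Creb1 passed at -0.57. Leaving out each library in turn gave Junb -0.98 to 0.30, Egr1 -0.45 to -0.023, Ier2 -0.39 to 0.028, Dusp1 -0.70 to 0.051, S100a5 -0.25 to -0.0027, Nfil3 -0.68 to -0.078, Hspa1a -1.41 to 0.043 and Hspa1b -1.17 to 0.043. The positive ends came without KO replicate 3, and for Ier2 without neo replicate 1.

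Between KO and WT, leaving out each library gave Fosb -0.46 to 0.91, Junb -0.15 to 0.93, Ier2 -0.17 to 0.15, Npas4 -0.52 to 0.33 and S100a5 -0.13 to 0.073. With limma on TPM, Ier2 was -0.14 in each setting and Npas4 was -0.20 without a filter. Between neo and WT the ranges were Junb -0.34 to 0.44, Egr1 -0.11 to 0.20, Dusp1 -0.00025 to 0.20, Ier2 -0.39 to 0.048 and Nr4a1 -0.37 to 0.026. Their negative ends for Junb, Egr1 and Dusp1 came without neo replicate 3.

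Same-numbered libraries of neo and KO had correlations of deviations of -0.11, -0.05 and 0.19, and differently numbered ones of -0.18 to 0.24. These values cannot settle whether the replicate numbers pair the samples, which the labels do not say. With the replicate block 1 gene and no member was called. In the fit of 7 libraries with the block (added after seeing the data), 1 gene was called in each comparison with WT. The log2 differences that changed sign were Junb -0.22 and Ier2 -0.41 for KO minus WT, and Junb -0.59, Egr1 -0.10 and Dusp1 -0.10 for neo minus WT. Fosb and Npas4 rest on 3 to 45 counts per library, so that small differences in them were not detectable at this depth.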
